A study of Mus musculus with 8 samples.

Results

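The 38 genes described here build and drive cell division: cyclins and kinases that start mitosis, the spindle assembly checkpoint, the kinetochore, the microtubule spindle and the machinery that cuts the daughter cells apart. They are a list of names, gathered by function but with earlier results of these data known, so the shares below are a description. Each was read by the brightest probe set that the array annotation gives to that gene alone. Of the 38 genes, 36 were measured, among 17098 genes tested. Ccnb1, which encodes the main mitotic cyclin, and Nuf2, a kinetochore subunit, had no such probe set and are not analysed here. After 8 h of cisplatin 26 of the 36 were lower, 1 was higher and 9 did not pass the test, at an adjusted p under 0.05.

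Mitosis starts when the kinase CDK1 is switched on by cyclins A and B. Kinetochores then tie each chromosome to spindle microtubules, and the checkpoint keeps the anaphase-promoting complex (APC/C) idle until all are attached. Once CDC20 activates the complex, securin is destroyed, separase opens cohesin, and the central spindle guides a RhoA-driven ring that closes between the daughters. Most of these genes are transcribed late in the cycle, in G2 and M phase, and are repressed by the DREAM complex, which can bind a promoter element called the CHR, when cells leave the cycle. ES cells divide fast and spend little of their cycle in G1, so transcripts of mitosis are abundant in them.

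The cells were HPRT deficient mouse ES cells of strain C57BL/6 at passages 19 to 22, which lack a purine salvage enzyme. They had been kept on feeder cells and then on gelatin, and both groups share all of this. The 4 cisplatin samples received 2.5 µM of the platinum drug, which crosslinks DNA, for 8 h, and the 4 controls received its solvent dimethyl sulfoxide (DMSO) for as long. Messenger RNA was labelled from its 3′ end, and each sample was read on 1 array, and the replicates of each group are numbered 3 to 6. Whether they are separate cultures is not in the labels, so a p-value here reflects the spread of these arrays alone, which could be technical. Each array reads a whole culture: fewer cells in G2 and M phase and less RNA of these genes per cell cannot be told apart.

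Values are log2 expression, and a change is the cisplatin mean less the control mean, ± SE from 4 arrays each, with limma's adjusted p over all genes tested. Correlations between arrays were 0.997 to 0.998 within a group and 0.992 to 0.995 across groups. The 36 genes were well expressed: their group means ran from 8.47 to 11.90, against an array background of 3.10. The median SE was 0.06 for them and 0.08 for all genes. Cdkn1a, the p53 target that inhibits cyclin-dependent kinases, checks the treatment: it rose from 7.41 ± 0.15 to 8.63 ± 0.23 (SD, n = 4), a change of 1.22 ± 0.12 with an adjusted p of 9.8e-05.

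The loss was shallow and wide. The share of the 36 genes that were lower was 72.2%, where 7.69% of all genes were lower and 11.6% higher. The median change of the 36 was -0.25, against 0.01 for all genes, and the changes ran from -0.60 to 0.20. The changes of 31 genes lay below 0. In 28 genes all 4 cisplatin arrays lay below all 4 control arrays, which 10.1% of all genes did. In 1 gene, Spc25, they lay above, as in 2428 of the 17098 genes tested. Among those called lower, the fall ran from 12.1% (Cep55) to 33.9% (Ect2), and the median change of the 36 equals a fall of 15.9%. Averaged over the 36 genes, the cisplatin arrays read 9.87 to 9.92 (9.90 ± 0.02, SD, n = 4) and the controls 10.11 to 10.16 (10.14 ± 0.02, SD, n = 4). The averages of the groups did not overlap. By role, all 5 cytokinesis genes were lower (median change -0.40), as were all 3 spindle microtubule genes (-0.35) and all 3 genes of mitotic chromosomes (-0.26). The kinases and the chromosomal passenger complex had 4 of 5 lower (-0.30), the kinetochore 4 of 6 lower and 1 higher (-0.23), the checkpoint 3 of 5 lower (-0.19), anaphase onset 2 of 4 (-0.19) and mitotic entry 2 of 5 (-0.19). Differences between these role groups were not tested.

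**Figure D1:**
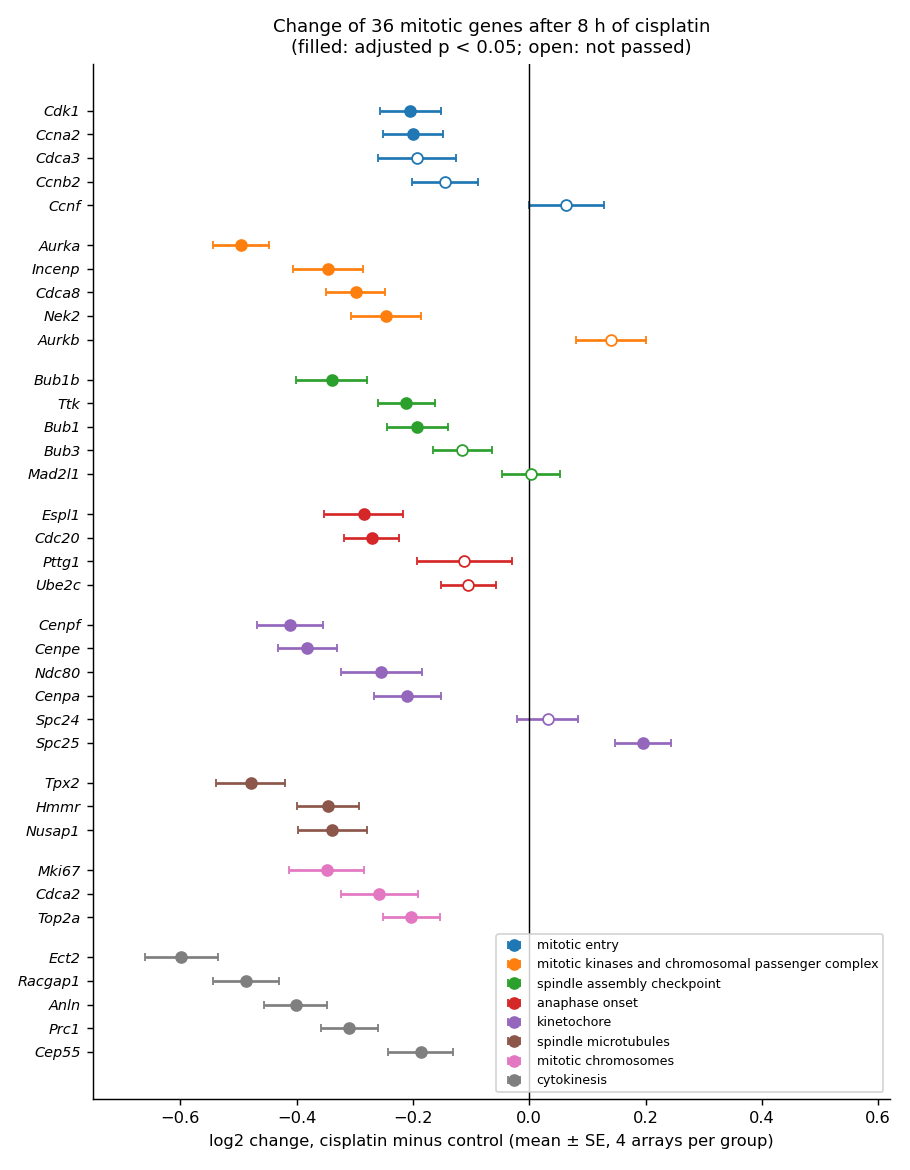
Log2 change, cisplatin minus control, of each of the 36 genes with its SE over 4 arrays per group, in role groups; filled points passed an adjusted p under 0.05 and open points did not. All 5 cytokinesis genes lie left of 0, down to -0.60 for Ect2, and Spc25 at 0.20 is the filled point on the right.

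The promoters of these genes share letters that the list's choice did not use, and 9 stretches are printed to show them. For 6 role groups, the gene printed is the one with the largest fall among those that hold a CHR. Racgap1 and Anln, which also hold a CHR, fell more than some of these 6 but share the role group of Ect2. The rest are 2 lowered genes without a CHR and Spc25, the gene that rose, which was added after its values were seen. The sequences are RefSeq's for GRCm38.p6, 5′ to 3′ on the gene's strand, from 130 bases before the annotated start to 30 after it. Capitals mark the CHR (TTTGAA or TTCGAA, on either strand) and the CCAAT box (CCAAT, or ATTGG on the other strand), which is bound by the factor NF-Y.
Ect2: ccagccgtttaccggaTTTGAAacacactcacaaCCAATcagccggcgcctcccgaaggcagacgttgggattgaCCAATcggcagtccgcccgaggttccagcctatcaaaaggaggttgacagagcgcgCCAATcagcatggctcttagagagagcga
Aurka: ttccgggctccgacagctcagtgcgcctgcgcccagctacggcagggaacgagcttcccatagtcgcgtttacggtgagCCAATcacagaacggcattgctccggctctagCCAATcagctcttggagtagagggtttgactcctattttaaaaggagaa
Cenpf: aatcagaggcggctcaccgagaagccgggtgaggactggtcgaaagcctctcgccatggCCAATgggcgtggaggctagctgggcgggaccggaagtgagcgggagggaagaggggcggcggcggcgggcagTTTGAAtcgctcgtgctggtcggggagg
Mki67: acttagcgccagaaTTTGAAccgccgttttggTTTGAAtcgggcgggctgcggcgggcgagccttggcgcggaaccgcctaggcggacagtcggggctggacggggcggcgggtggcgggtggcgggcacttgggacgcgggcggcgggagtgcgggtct
Hmmr: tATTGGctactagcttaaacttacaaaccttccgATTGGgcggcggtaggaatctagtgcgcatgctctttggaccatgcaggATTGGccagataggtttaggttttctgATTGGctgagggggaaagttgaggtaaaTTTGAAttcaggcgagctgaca
Bub1b: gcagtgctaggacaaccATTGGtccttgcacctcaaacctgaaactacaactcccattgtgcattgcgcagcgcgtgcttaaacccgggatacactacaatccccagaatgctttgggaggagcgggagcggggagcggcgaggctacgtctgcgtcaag
Cenpe: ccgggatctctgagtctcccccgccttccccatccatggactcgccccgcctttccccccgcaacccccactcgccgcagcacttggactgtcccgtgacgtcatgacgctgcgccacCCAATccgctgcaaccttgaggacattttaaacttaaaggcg
Nusap1: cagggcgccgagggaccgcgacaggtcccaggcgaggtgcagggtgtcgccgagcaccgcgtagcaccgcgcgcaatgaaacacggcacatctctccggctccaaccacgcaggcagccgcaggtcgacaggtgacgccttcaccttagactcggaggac
Spc25: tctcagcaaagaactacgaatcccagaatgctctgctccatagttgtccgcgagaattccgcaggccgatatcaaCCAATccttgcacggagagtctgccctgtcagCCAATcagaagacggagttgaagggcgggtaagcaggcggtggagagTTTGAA
The Ect2 stretch lies at chr3:27153849-27154008 on the minus strand, with a CHR at -114 and CCAAT boxes at -96, -55 and 2, counted at the first base of the match. Aurka, at chr2:172370541-172370700 (minus), has CCAAT boxes at -51 and -19, and its CHR starts at 33, just past the stretch. Cenpf, at chr1:189688057-189688216 (minus), has its CHR at 3. Mki67, at chr7:135716350-135716509 (minus), has a pair of CHRs, at -116 and -98. Hmmr, at chr11:40733408-40733567 (minus), has a CHR at 9 and CCAAT boxes on the other strand at -129, -96, -47 and -20. Bub1b, at chr2:118598081-118598240 (plus), has CHRs at -188 and 41, both outside the stretch. Cenpe, at chr3:135212433-135212592 (plus), has a CCAAT box at -12 and no CHR, and Nusap1, at chr2:119618168-119618327 (plus), has neither. Spc25, at chr2:69206184-69206343 (minus), ends the stretch with a CHR at 25 and has CCAAT boxes at -55 and -23.

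The promoter table, with 300 bases per window (250 before and 50 after the start), held 30 of the 36 genes. It had none for Ccna2, Aurkb, Incenp, Spc24, Tpx2 and Cdca2. A CHR stood in 25 of the 30 windows (83.3%), against 17.5% of the windows of the 13514 tested genes that have one. A CCAAT box stood in 24 (80.0%, against 42.3%), and both together in 22 (73.3%, against 7.04%). An E2F-type site (TTTCCCGC, TTTCGCGC, TTTGCCGC or TTTGGCGC, either strand), the kind found at many S phase genes, stood in 1, that of Cdk1 (3.33%, against 3.78%). The CHR nearest to the start lay at a median of 8, from -98 to 41, and within 60 bases of it in 24 of 25 genes. The nearest CCAAT box lay at a median of -30, within 60 bases in 19 of 24 genes. In Cdca8 a CHR and a CCAAT box share 1 base. Within the list, genes with and without the letters are given side by side, and their difference was not tested. The median change was -0.25 both for the 25 genes with a CHR and for the 5 without (Cenpe, Nusap1, Nek2, Pttg1 and Mad2l1). Of those with it 19 were lower and Spc25 was higher, and of those without it 3 were lower. Over all genes, the list included, 9.08% of those with a CHR were lower and 7.29% of those without. With both elements it was 11.2%, against 7.32% of the rest. Genes also rose: of the 2368 with a CHR 215 were lower and 269 higher, and of the 11146 without, 812 and 1361. Of the 952 with both elements 107 were lower and 106 higher, and of the other 12562, 920 and 1524. A match is a run of letters, not evidence of binding.

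**Figure D2:**
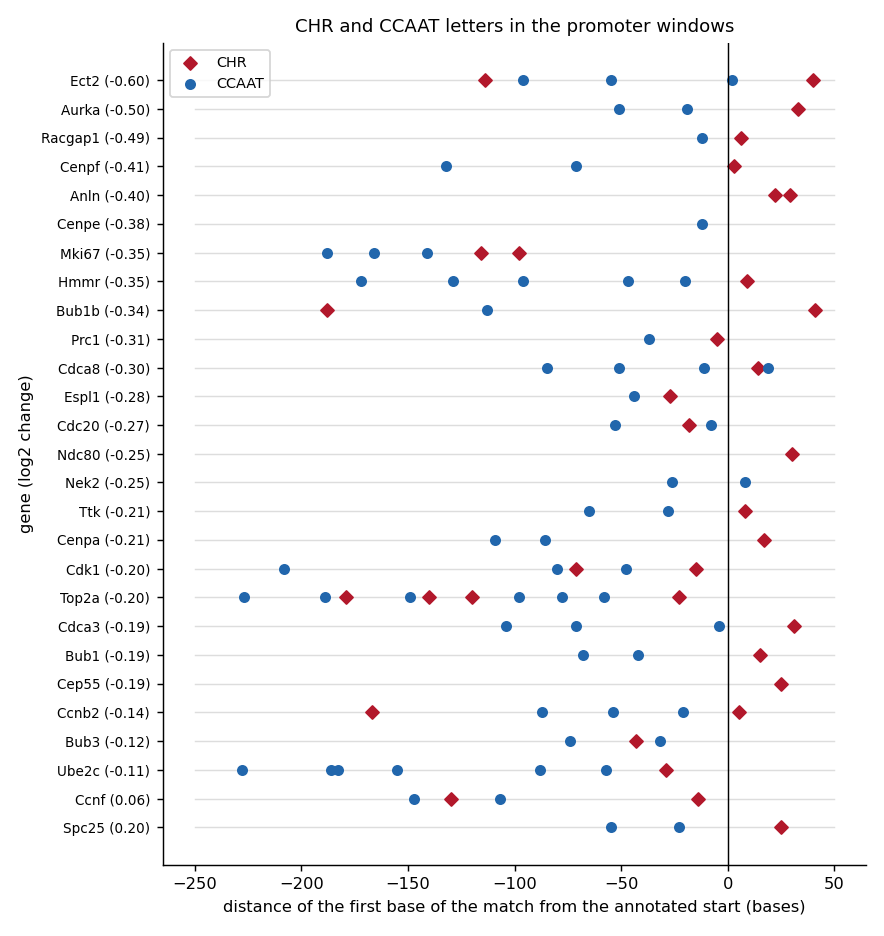
First base of each CHR match (red) and CCAAT match (blue) in the first RefSeq promoter window of each gene, against the annotated start at 0, for the genes of the list with at least 1 match. Genes are ordered by log2 change, in brackets, from Ect2 at the top (-0.60) to Spc25 at the bottom (0.20). The nearest CHR of each gene, over all its windows, had a median of 8, and further matches lie as far out as -188 (Bub1b).

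Of the 5 genes of mitotic entry 2 fell. Cdk1, the kinase itself, read 11.27, 11.30, 11.18 and 11.31 on the cisplatin arrays and 11.43, 11.52, 11.44 and 11.48 on the controls. No cisplatin array reached the lowest control, and the change was -0.20 ± 0.05 (adjusted p = 0.0217). Ccna2, cyclin A of S and G2 phase, read 10.70, 10.77, 10.69 and 10.76 against 10.97, 10.98, 10.89 and 10.88, also without overlap, at -0.20 ± 0.05 (adjusted p = 0.0215). Both calls were thin: that of Cdk1 was lost without cisplatin 5 or control 4 (adjusted p up to 0.0627), and that of Ccna2 without cisplatin 3, cisplatin 5, control 3 or control 4 (up to 0.0646). Ccnb2, the second B-type cyclin, read 10.38, 10.44, 10.47 and 10.30 against 10.49, 10.59, 10.57 and 10.53. Its groups did not overlap either, but -0.14 ± 0.06 did not pass (adjusted p = 0.108). Cdca3, a trigger of mitotic entry, did not pass at -0.19 ± 0.07 (adjusted p = 0.0717), with cisplatin 4 (10.47) above control 5 (10.46). Ccnf, the F-box cyclin that targets other proteins for destruction, differed by 0.06 ± 0.06 (adjusted p = 0.576), with overlapping groups.

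Of the kinases on the list, Aurka had the largest fall. Aurka, the kinase of centrosomes and spindle poles, read 9.46, 9.45, 9.42 and 9.42 with cisplatin and 9.91, 9.96, 9.89 and 9.97 in the controls. Its gap was far wider than the spread within either group, and the change of -0.50 ± 0.05 (adjusted p = 0.000111) means that it fell by 29.1%. Nek2, which parts the centrosomes, read 8.91, 8.91, 8.91 and 8.76 against 9.12, 9.22, 9.07 and 9.07. It fell by 0.25 on the log2 scale (SE 0.06, adjusted p = 0.0177), a call that ended without control 4 (adjusted p = 0.0513). The chromosomal passenger complex, which corrects faulty attachments and later acts at the midzone, had 2 of its 3 listed genes lower. Incenp, its scaffold, read 8.98, 8.98, 9.04 and 8.96 against 9.29, 9.47, 9.35 and 9.25, a change of -0.35 ± 0.06 (adjusted p = 0.00279). Cdca8 (borealin), which targets the complex to centromeres, averaged 9.73 ± 0.06 against 10.03 ± 0.03 (SD, n = 4), with no cisplatin array above 9.78, a change of -0.30 ± 0.05 (adjusted p = 0.00258). Neither gene's groups overlapped. Aurkb, the kinase of the complex, went the other way in its values: 8.63, 8.60, 8.68 and 8.53 against 8.51, 8.37, 8.45 and 8.55, or 0.14 ± 0.06, which did not pass (adjusted p = 0.145). Cisplatin 6 lay below control 6. Both probe sets of Aurkb can match several transcripts by their names, which end in s_at or x_at. Without such probe sets the gene has no value. Birc5 (survivin), the remaining subunit and not a gene of the list, differed by -0.06 ± 0.05 (adjusted p = 0.402).

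The log2 ratio of each pair of subunits on each array sets the subunits side by side. The pairs, here and in the NDC80 complex below, were chosen after the values of the genes were seen, so their differences are given with no test. The ratio of Aurkb to Incenp was 0.49 higher with cisplatin, that of Aurkb to Cdca8 0.44 higher and that of Aurkb to Birc5 0.20 higher. Incenp to Birc5 was lower, with a change of -0.28, and so was Cdca8 to Birc5, with -0.23. For Incenp and Cdca8, the subunits that both fell, the ratio changed by -0.05.

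The spindle assembly checkpoint was lower in part. Bub1b (BubR1), which binds CDC20 in the mitotic checkpoint complex, read 9.72, 9.93, 9.90 and 9.80 against 10.14, 10.24, 10.19 and 10.15. The groups stood clear of each other, and the change was -0.34 ± 0.06 (adjusted p = 0.00331). Ttk (MPS1), the kinase that starts the signal at empty kinetochores, read 9.46, 9.46, 9.39 and 9.50 against 9.67, 9.67, 9.63 and 9.68, a change of -0.21 ± 0.05 (adjusted p = 0.0131). Bub1, the kinase that recruits the others, had its highest cisplatin array at 10.43 and its lowest control at 10.49, and changed by -0.19 ± 0.05 (adjusted p = 0.0269). Its call ended with any of 6 arrays left out (cisplatin 4, 5 or 6, control 3, 5 or 6, adjusted p up to 0.0779). Bub3, the adaptor that docks both BUB proteins, did not pass at -0.12 ± 0.05 (adjusted p = 0.159). Mad2l1 (MAD2), the protein that turns into the CDC20 inhibitor, read 11.33, 11.26, 11.23 and 11.33 against 11.30, 11.31, 11.24 and 11.29. These groups lay on top of each other, and the difference was 0.00 ± 0.05 (adjusted p = 0.971).

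At anaphase onset, Cdc20, the activator of the APC/C and the target of the checkpoint, read 10.73, 10.72, 10.73 and 10.70 against 11.00, 11.04, 10.95 and 10.98. Its cisplatin arrays were nearly identical and all lower, at -0.27 ± 0.05 (adjusted p = 0.00303). Espl1 (separase), the protease that opens cohesin, read 8.57, 8.53, 8.64 and 8.50 against 8.75, 8.94, 8.74 and 8.95, a change of -0.28 ± 0.07 (adjusted p = 0.0153). The inhibitor of separase, Pttg1 (securin), read 11.43, 11.58, 11.50 and 11.44 against 11.45, 11.56, 11.56 and 11.83. Control 6 alone stood high, the other arrays overlapped, and -0.11 ± 0.08 did not pass (adjusted p = 0.408). Ube2c, the ubiquitin-conjugating enzyme of the APC/C, had its highest cisplatin array at 11.83 and its lowest control at 11.88, yet -0.11 ± 0.05 did not pass (adjusted p = 0.162).

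Of the 6 kinetochore genes of the list, Cenpf and Cenpe fell most. Cenpf, a fibrous corona protein, read 9.12, 9.07, 9.06 and 9.09 against 9.53, 9.58, 9.49 and 9.38, a change of -0.41 ± 0.06 (adjusted p = 0.00079). Cenpe, the kinesin that carries chromosomes to the equator, read 8.74, 8.72, 8.75 and 8.66 against 9.12, 9.15, 9.08 and 9.04, a change of -0.38 ± 0.05 (adjusted p = 0.000676). Both were lower on every cisplatin array than on any control. Cenpa, the histone H3 variant that marks the centromere, changed by -0.21 ± 0.06 (adjusted p = 0.0289), lost without cisplatin 3 or 6 or control 3, 4 or 5 (adjusted p up to 0.0797). Of the NDC80 complex, the rod that grips microtubules, 3 subunits were measured. Ndc80, its microtubule-binding end, read 8.74, 8.71, 8.86 and 8.89 against 9.02, 9.11, 9.17 and 8.93, a change of -0.25 ± 0.07 (adjusted p = 0.029). That call was lost without cisplatin 3 or 4 or control 3, 4 or 5 (adjusted p up to 0.0794), and with the replicate number as a block in the fit (adjusted p = 0.0507). Spc24, at the inner end of the rod, read 9.23, 9.11, 9.14 and 9.23 against 9.15, 9.11, 9.19 and 9.14, a difference of 0.03 ± 0.05 that did not pass (adjusted p = 0.751). Spc25, its partner there, read 10.25, 10.29, 10.32 and 10.28 against 10.08, 10.13, 10.10 and 10.05. Every cisplatin array was above every control, and Spc25 rose by 0.20 ± 0.05 (adjusted p = 0.0171), or 14.5%. With each array centred on its median the call was lost, at 0.06 (adjusted p = 0.347). The ratio of Ndc80 to Spc25 changed by -0.45, Ndc80 to Spc24 by -0.29 and Spc24 to Spc25 by -0.16, given as a description.

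All 3 genes of spindle microtubules fell. Tpx2, which activates Aurora A on microtubules and nucleates them near chromatin, read 9.43, 9.61, 9.48 and 9.45 against 9.95, 10.02, 10.02 and 9.89, a change of -0.48 ± 0.06 (adjusted p = 0.000444). Hmmr, a spindle assembly factor, read 10.06, 10.17, 10.14 and 10.06 against 10.45, 10.51, 10.47 and 10.39, a change of -0.35 ± 0.05 (adjusted p = 0.00151). Nusap1, which bundles microtubules around chromosomes, read 10.19, 10.21, 10.22 and 10.11 against 10.51, 10.58, 10.59 and 10.41, a change of -0.34 ± 0.06 (adjusted p = 0.00305). No cisplatin array reached a control in any of the 3. Of the genes of mitotic chromosomes, Mki67, which coats them and is a common proliferation marker, read 9.42, 9.47, 9.57 and 9.39 against 9.82, 9.89, 9.84 and 9.68, a change of -0.35 ± 0.07 (adjusted p = 0.00431). Top2a, the topoisomerase that untangles sister chromatids, read 11.48, 11.44, 11.45 and 11.38 against 11.66, 11.61, 11.64 and 11.63, a change of -0.20 ± 0.05 (adjusted p = 0.0155). Cdca2 (Repo-Man), which targets a phosphatase to chromatin at mitotic exit, changed by -0.26 ± 0.07 (adjusted p = 0.022). The call for Cdca2 ended without cisplatin 3 or cisplatin 5 (adjusted p up to 0.0608).

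All 5 cytokinesis genes fell, Ect2 more than any other of the 36. Ect2, the exchange factor that switches on RhoA, read 9.68, 9.67, 9.68 and 9.69 with cisplatin and 10.41, 10.21, 10.33 and 10.16 in the controls. The cisplatin arrays were nearly equal and lay far under the lowest control, and Ect2 fell by 33.9% (-0.60 ± 0.06, adjusted p = 0.000178). Racgap1, the centralspindlin subunit that recruits Ect2 to the midzone, read 8.58, 8.62, 8.72 and 8.54 against 9.13, 9.14, 9.10 and 9.04, a change of -0.49 ± 0.06 (adjusted p = 0.00031). Anln (anillin), the scaffold that ties RhoA to actin and myosin, read 10.30, 10.21, 10.23 and 10.19 against 10.67, 10.67, 10.65 and 10.54, a change of -0.40 ± 0.05 (adjusted p = 0.000681). Prc1, which bundles the antiparallel microtubules of the midzone, read 9.19, 9.27, 9.25 and 9.19 against 9.49, 9.53, 9.56 and 9.55, a change of -0.31 ± 0.05 (adjusted p = 0.00167). The groups of these 4 genes did not overlap. Cep55, which recruits the abscission machinery at the end, changed least of the 5, by -0.19 ± 0.06 (adjusted p = 0.0421). The call for Cep55 was lost when any array but control 6 was left out (adjusted p up to 0.109), and with the replicate number as a block (adjusted p = 0.066).

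**Figure D3:**
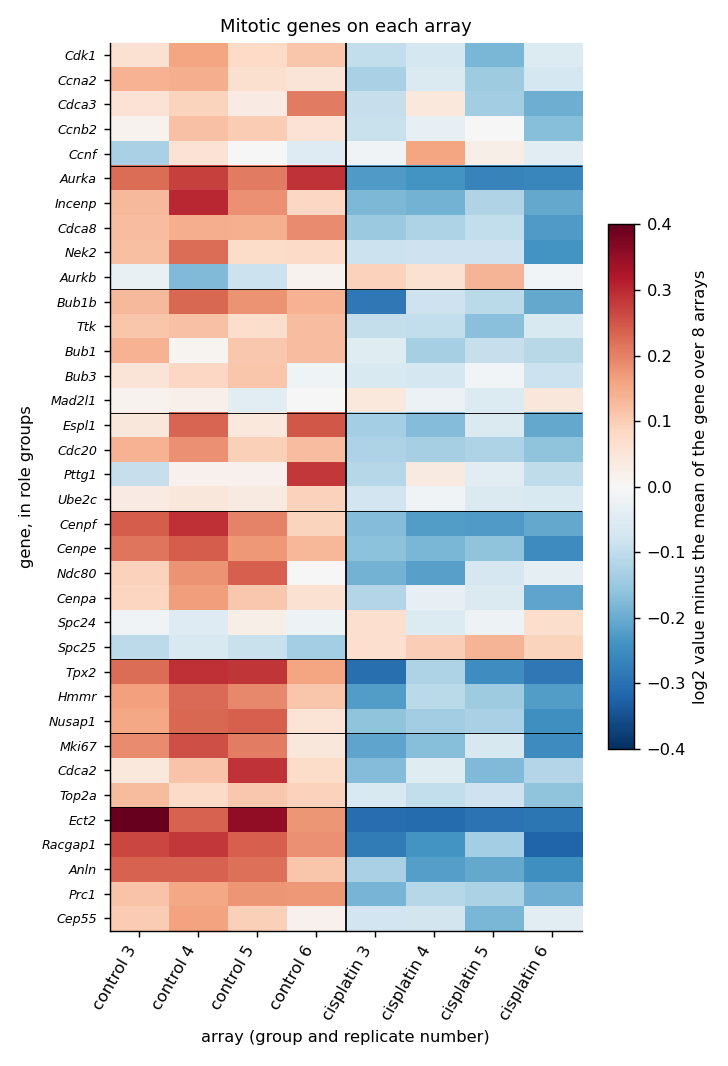
Each gene of the list (rows, in role groups) on each of the 8 arrays (columns), coloured by the log2 value minus the gene's mean over the 8 arrays. The 4 control columns are mostly red and the 4 cisplatin columns mostly blue, with Spc25 the reverse and Mad2l1 (a difference of 0.00) nearly white.

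Further probe sets read the same genes at other sites. The 36 genes had 70 probe sets in all, 14 genes 1 and 22 genes several. When all 28898 probe sets with 1 gene were tested together, 41 of the 70 were lower and 1 higher, where 7.69% of all were lower and 8.60% higher. Of the 34 that were not the brightest of their gene, 16 were lower, none was higher and 31 had changes below 0, while 7 read below the array background. Of the genes with several, Cenpf, Tpx2, Racgap1, Cenpe, Anln, Prc1, Cdca8 and Cdca2 were lower by every probe set they have. The other probe set of Racgap1 gave -0.51 ± 0.06, that of Tpx2 -0.47 ± 0.07 and that of Anln -0.49 ± 0.08. Hmmr was lower by 4 of its 5 probe sets, and the remaining one differed by -0.09 ± 0.10. A dimmer probe set of Pttg1 was lower, at -0.29 ± 0.07 (adjusted p = 0.0218), although its brightest did not pass. The second probe set of Aurkb gave 0.22 ± 0.07 (adjusted p = 0.0556), above 0 like the first, and like it can match several transcripts. That of Ccnf gave -0.09 ± 0.06, opposite in sign to the first. Averaging the probe sets of a gene ended the calls of Bub1, Cenpa, Nek2, Nusap1 and Top2a and made Aurkb higher (0.18, adjusted p = 0.0476). Each of those 5 genes has a probe set below the array background, save Nusap1, whose second one read 3.74.

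The normalization sets where 0 lies. Centring each array on the median of its genes moved the median of all genes by 0.13, from 0.01 to -0.12, and turned the split of all calls from 60.2% higher to 21.7% higher, with 23.0% of all genes lower and 6.36% higher. On that scale 30 of the 36 genes were lower and none higher, and their median was -0.38. Bub3, Ccnb2, Cdca3 and Ube2c then passed as lower, and Ccnf, Mad2l1 and Spc24 changed sign without passing. The same 4 genes also passed, as lower, when the test used an intensity trend and robust variance.

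Longer genes of the list mostly had the lower changes. Lengths are those of the RefSeq gene, introns included, and the length classes were chosen after the values were seen. The 36 genes spanned 2.97 kb (Ube2c) to 61.0 kb (Cenpe), with a median of 24.2 kb, against 20.2 kb for all genes. Across the 36, length and change had a Spearman correlation of -0.66 and a Pearson correlation of -0.60 with log10 length, where genes are not independent replicates and all were read on the same 8 arrays. Across the 16937 genes with a length, Spearman's value was -0.25. All 14 genes of 30 to 100 kb were lower (median -0.34), where 10.6% of all genes of that size were (median -0.01). In the class of 10 to 30 kb 9 of 13 were lower and Spc25 higher (median -0.25, against 3.14% lower and 0.04 for all). Under 10 kb 3 of 9 were lower, Ccna2, Cdc20 and Cenpa (median -0.11, against 2.11% and 0.04). No gene of the list is longer than 100 kb, a class in which 26.9% of all genes were lower. Under 10 kb, Cdc20, with 4.44 kb, fell, and Mad2l1, with 5.89 kb, differed by 0.00. In the class of 10 to 30 kb, Aurka, with 14.7 kb, fell by 0.50 on the log2 scale. The expression level had a Spearman correlation of 0.32 with the change. The part of length in the changes was not tested.

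**Figure D4:**
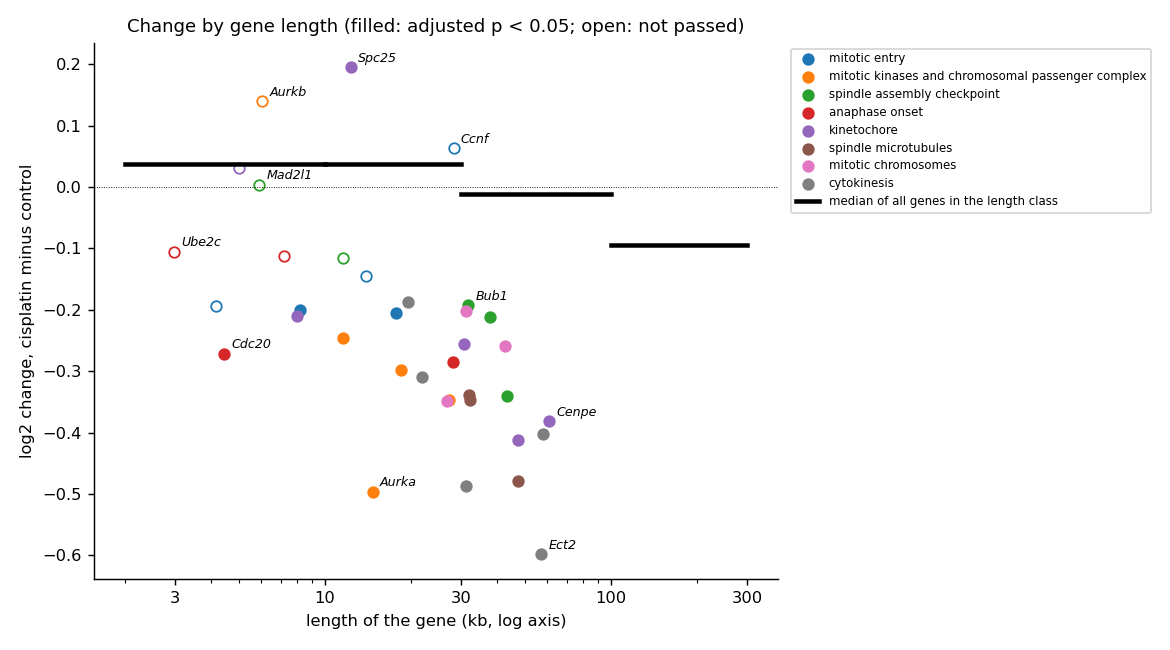
Log2 change of each of the 36 genes against the length of its gene in kb (log axis), coloured by role, with black bars for the median of all genes in each length class. The 14 genes between 30 and 100 kb are all filled and below 0, down to Ect2 at -0.60, while genes under 10 kb scatter from Cdc20 to Aurkb.

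The rest of the mitotic machinery was read through 7 further lists, 127 measured genes in all. Of these 36 were lower (28.3%, against 7.69% of all genes) and 13 higher (10.2%, against 11.6%), with a median of -0.06. By length, 2 of 15 under 10 kb were lower, 12 of 56 from 10 to 30 kb, 14 of 44 from 30 to 100 kb and 8 of 12 above. The shares of all genes lower in these classes were 2.11%, 3.14%, 10.6% and 26.9%. In the control of mitotic entry 4 of 13 were lower and none higher: Plk1, the polo kinase, by -0.77 ± 0.05 (adjusted p = 2.58e-05), Bora, which helps Aurora A to switch on Plk1, by -0.32 (0.0159), Cks2, a CDK-binding protein, by -0.29 (0.00391), and Fbxo5 (EMI1), an inhibitor of the APC/C, by -0.24 (0.0054). Plk1 read 8.60, 8.69, 8.59 and 8.57 against 9.40, 9.43, 9.40 and 9.30, deeper than any gene of the list. Of 14 regulators of mitotic transcription, Mybl2 (B-Myb) fell by 0.53 on the log2 scale (adjusted p = 0.000593) and Lin52, the DREAM and MuvB subunit, by 0.29 (adjusted p = 0.00655). Rbl2 (p130), the pocket protein of DREAM, rose by 1.20 ± 0.06 (adjusted p = 5.83e-06), from 4.31 ± 0.09 to 5.51 ± 0.05 (SD, n = 4).

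The shares of the next lists stand beside 7.69% lower and 11.6% higher for all genes. Among 31 other kinetochore and centromere genes 7 were lower (22.6%) and 6 higher (19.4%), with a median of -0.02. The list was led by Knl1, the scaffold for the BUB proteins (-0.49, adjusted p = 0.000132), Cenpt, a DNA-bound anchor of NDC80 (0.48, adjusted p = 0.000403), and Cenpc1, the other anchor (-0.39, adjusted p = 0.000404). The APC/C and its partners had 2 of 14 lower and 2 higher (14.3% each). Fzr1 (CDH1), the activator of the complex in G1 (-0.33), and Cdc27 (-0.29) were lower, and Anapc7 (0.19) and Anapc16 (0.42) higher. The rise of Anapc16 rests on 1 probe set that can match several transcripts: without such probe sets its change was 0.00 (adjusted p = 0.998), and that of Anapc7 was lost without cisplatin 4, cisplatin 5 or control 3, 4 or 5 (adjusted p up to 0.0753). Condensin and cohesin genes had 9 of 17 lower (52.9%) and none higher, with a median of -0.19. The cohesin subunit Stag1 led (-0.70, adjusted p = 3.79e-05), then Pds5b (-0.43) and Stag2 (-0.35). Stag1 spans 361 kb, Pds5b 137 kb and Stag2 128 kb. Of 26 other spindle and centrosome genes 10 were lower (38.5%) and 4 higher (15.4%). Clasp1, which stabilises microtubules at kinetochores, changed by -0.60, and the 4 higher were Haus2 (0.66), Ckap2 (0.56), Tacc2 (0.51) and Haus7 (0.31), the last of them lost on the centred scale (adjusted p = 0.0508). The 12 other cytokinesis genes had 2 lower (16.7%) and none higher. Those lower were Rock1, a kinase under RhoA (-0.33, adjusted p = 0.00501), and Plk4, of centriole copying (-0.16, adjusted p = 0.0488). The call for Plk4 ended with any array left out (adjusted p up to 0.118), and Cit, the citron kinase of the midbody, did not pass at -0.16 (adjusted p = 0.17).

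S phase genes, which dividing cells also need, were read as a further list. Of 39 measured, 2 were lower (5.13%, against 7.69% of all genes) and 7 higher (17.9%, against 11.6%), with a median of 0.06. Their mean per array was 9.70 to 9.71 with cisplatin and 9.62 to 9.66 in the controls. Gins3, of the replicative helicase, rose by 0.50 (adjusted p = 0.00152) and Ccne2, cyclin E of the G1 to S step, by 0.39 (adjusted p = 0.00168). The 2 lower were Pola1 (-0.44, adjusted p = 0.00256) and Prim2 (-0.27, adjusted p = 0.0215), both of the primase complex. Its other subunits did not fall: Prim1 was higher (0.23, adjusted p = 0.0191) and Pola2 did not pass at 0.17 (adjusted p = 0.0585). Pola1 spans 328 kb and Prim2 216 kb, and no S phase gene under 100 kb was lower. The part of length was not tested. The call for Prim2 was lost without cisplatin 5, cisplatin 6 or any of controls 3 to 5 (adjusted p up to 0.0625). The count of 7 fell to 3 without cisplatin 6, control 4 or control 5 and to 4 without cisplatin 3, cisplatin 5 or control 3, and the 2 lower became 1 without cisplatin 5, cisplatin 6 or any of controls 3 to 5. On the centred scale, which lowers every change, 7 were lower and 2 higher, where 23.0% of all genes were lower and 6.36% higher. The difference between the 36 genes and the S phase genes was not tested.

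**Figure D5:**
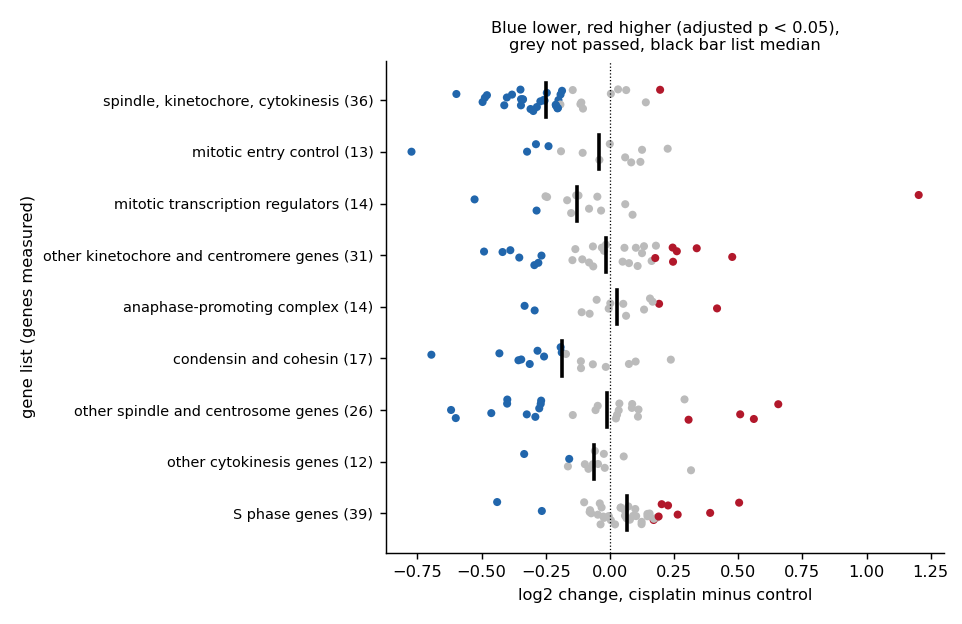
Log2 change of every measured gene in the list described here and in 8 other lists, with the number measured in brackets; blue genes were lower and red genes higher at an adjusted p under 0.05, and the black bar is the list's median. The top row has 26 blue points and 1 red around a median of -0.25, and the S phase row 2 blue and 7 red around 0.06.

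Markers of the cells themselves were read beside these values. Of 9 ES cell markers 5 were lower (55.6%, against 7.69% of all genes) and none higher, with a median of -0.22. They were Esrrb (-0.55), Zfp42 (-0.34), Lin28a (-0.33), Nanog (-0.25) and Utf1 (-0.22). The call for Nanog was lost without cisplatin 4, cisplatin 5, control 3 or control 6 (adjusted p up to 0.0603). Pou5f1, the defining factor of ES cells, read 12.19 ± 0.06 with cisplatin and 12.23 ± 0.06 in the controls (SD, n = 4), a difference of -0.04 (adjusted p = 0.674). Of 16 differentiated lineage markers Pax6 was lower (-0.77), a share of 6.25%, against 7.69% of all genes, and none was higher. Feeder fibroblast markers had 3 of 16 higher (18.8%, against 11.6% of all genes), Mmp2 (0.60), Thy1 (0.61) and Fbln2 (0.20), and none lower. In that list 11 of 16 genes read below the array background in both groups, among them Fbln2 (2.30 with cisplatin and 2.10 in the controls). The mean of the list ran from 3.09 to 3.31 with cisplatin and from 3.10 to 3.18 in the controls. Thy1 was lost without control 3 (adjusted p = 0.0519), and Fbln2 without cisplatin 5, cisplatin 6 or any of controls 3 to 5 (up to 0.0728). The 3′ minus 5′ signal of Actb, a measure of RNA integrity, was 0.53 ± 0.01 with cisplatin and 0.54 ± 0.03 in the controls (SD, n = 4). The part of the ES cell and fibroblast markers in the changes of mitotic genes was not tested.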

How the data were processed

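The deposited values are log2 expression per probe set and array. The submitters' processing notes name RMA, which corrects background, normalizes between arrays and summarises probe sets, and limma, both without a version. Of 45141 probe sets, 28898 carry 1 gene. Each of 17098 genes was read by its probe set with the highest mean over the 8 arrays. Groups follow the treatment labels. The groups were compared with lmFit and eBayes of limma 3.58.1 (R 4.3.3, no covariate), with Benjamini-Hochberg adjustment over all genes and a threshold of 0.05. The fit was tested on simulated data. Array background is the mean of probes of 25 bases with 24 G or C. No filter on dim genes was used.

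The genes and lists were chosen with earlier results of these data known. All genes of the list are named, and in each other list the 3 with the smallest p, every called gene where 5 or fewer were called in a direction, and Cdkn1a. Birc5, Prim1, Pola2, the pairs of subunits, the length classes, the tests of single probe sets and the promoter of Spc25 were added after the data were seen. Promoters and gene lengths come from RefSeq's GRCm38.p6, whose gene table held 16937 of the genes. The number of arrays limits the precision.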

Additional observations from a re-analysis of the deposited data

Results flagged for a closer look

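Among 72 groups (36 genes in 2 groups of 4 arrays) 2 had an array that stood far from the other 3, where chance gives about 1 in 20 groups. Nek2 on cisplatin 6 read 8.76, while the other 3 cisplatin arrays read 8.91 each. Anln on control 6 read 10.5, or 10.54 to 2 decimals, below the other controls at 10.65 to 10.67. Both genes were called lower with these arrays in and with them left out.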

How the results depend on the processing

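Of the 26 genes called lower, 18 were called with any single array left out. The count of genes lower ran from 20 (without control 4) to 25. With the array median as centre, 23.0% of all genes were lower and 6.36% higher. On that scale 0 genes of the list were higher, and the median change of the list was -0.38. Other mitotic genes numbered 64 lower and 6 higher, and S phase genes 7 lower and 2 higher. Ccnf (-0.0673), Mad2l1 (-0.127) and Spc24 (-0.099) were below 0, none passing. At an adjusted p under 0.01, 15 genes were lower and 0 higher, with 8 other mitotic genes higher and 1 S phase gene lower and 2 higher. Shares of all genes were not computed at 0.01 or in the settings that follow, so these counts have none beside them. The mean of a gene's probe sets gave 2 higher and Ccnf -0.0135, and the probe set with the largest variance Ccnf -0.0903 and 4 S phase genes higher. An intensity trend with robust variance gave 11 S phase genes higher. Without probe sets that can match several transcripts Anapc16 was at -0.00063. With single arrays left out, S phase genes numbered 1 to 2 lower and 3 to 8 higher, and Mad2l1 ranged from -0.0107 to 0.0229. Causes were not tested. Quantile normalization repeated and dim genes left out changed the call of no measured gene of the list. Nor did leaving out probe sets whose names end in s_at or x_at, while those ending in a_at were kept. With the replicate number as a block 24 were lower and 1 higher; it ended the calls of Cep55, Ndc80 and, outside the list, Plk4, and brought S phase genes higher to 5. Deviations of same-numbered arrays correlated at 0.20, 0.18, 0.20 and 0.06, and those of the other pairs from -0.17 to 0.11. Each cisplatin array went best with the control of its number, while control 6 went best with cisplatin 3 (0.11). The labels do not say whether the numbers pair the samples, and these values do not settle it. The main fit takes no pairing, so the block fit is given beside it. With changes mostly under 0.5 and an SE near 0.06, 4 arrays per group leave differences as small as those of Bub3 or Ube2c undecided.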
